A study of Mus musculus with 6 samples.

Results

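The syndecans, the glypicans and Cd44 are cell surface proteins through which a cell holds the matrix around it, mostly by sugar chains. The members were the rows of the expression table whose symbol was Sdc1, Sdc2, Sdc3, Sdc4, Gpc1, Gpc3, Gpc4, Gpc6 or Cd44. This gave 9 genes of 41449 rows, of which 4 are syndecans, 4 are glypicans and 1 is Cd44. Lenses of 2-month-old mice were profiled by RNA sequencing of total RNA, in 6 libraries of 2 lenses each. The 3 WT libraries came from C57BL/6 mice, and the 3 FNcKO libraries from mice with a conditional knockout of fibronectin on a mixed background (C57BL/6, 129, FVB/N). Genotype and strain background therefore cannot be told apart. The sources used here give neither the Cre line that deletes fibronectin and the cells in which it acts nor the sex of the mice. The unit is FPKM, a fragment number divided by transcript length and by library size, so that levels of different genes can be compared. The labels call the samples biological replicates, and values given for each library are in the order of replicates 1 to 3.

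Syndecans are single-pass membrane proteins that carry heparan sulfate chains, and these chains bind the heparin-binding domains of fibronectin. Syndecan-4 works beside integrins in focal adhesions on fibronectin, where its tail binds protein kinase C alpha. Glypicans carry heparan sulfate as well, but are tied to the membrane by a lipid anchor and tune Wnt, BMP, Hedgehog and FGF signalling. Cd44 is the main receptor for hyaluronan, a matrix sugar without a protein core, and links it to actin through ezrin, radixin and moesin. In the lens, heparan sulfate is needed for the FGF signalling that drives fiber cell formation.

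The syndecans share a short cytoplasmic tail, whose end binds the PDZ domains of syntenin and Cask. For the 4 genes, the coding bases of that end are shown for comparison. They are the last 48 bases before the stop codon in the GENCODE M21 transcript with the longest coding sequence (GRCm38), written 5′ to 3′ on the coding strand, and capitals mark the final 12 bases.
Sdc1: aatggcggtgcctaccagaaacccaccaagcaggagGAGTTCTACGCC
Sdc2: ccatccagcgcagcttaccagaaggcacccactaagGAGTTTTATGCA
Sdc3: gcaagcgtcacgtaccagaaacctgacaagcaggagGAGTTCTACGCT
Sdc4: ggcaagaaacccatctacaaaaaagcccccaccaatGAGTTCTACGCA
Over the 48 bases, Sdc1 and Sdc3 had 75% in common and Sdc2 and Sdc4 had 56.2%. The other pairs had between 37.5% and 45.8% in common. Bases were compared position by position back from the stop codon, without gaps. A shared stretch at another distance from the stop codon therefore counts as different, as for Sdc2 against Sdc1 and Sdc3. The low values of those pairs are thus no measure of how alike the tails are. Within the last 12 bases, between 9 and 11 were the same in each pair. Outside such short stretches the genes are distinct: none of the 36 pairs of members shared a stretch of 50 bases in any annotated transcript. In the table, 6 members had no other row overlapping their position. The 6 rows that overlapped Gpc1, Gpc3 and Gpc6 had a mean of at most 0.0849 FPKM in either genotype.

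Fn1, the targeted gene, was low in every library, with 0.135, 0.188 and 0.253 FPKM in the WT libraries, against 0.128, 0.0482 and 0.0942 FPKM in the FNcKO libraries. All 13 fiber cell markers reached a mean of 1 FPKM, as did 11 of 12 markers of the lens epithelium. WT replicate 2 has no value for the end of the table, which includes chromosome X and with it Gpc3 and Gpc4. WT replicate 1 differed from the others in genes tied to sex. Xist, the RNA of the inactive X chromosome, was at 0.0767 FPKM there against 9.75 in WT replicate 3 and 11.9 to 15.6 in FNcKO. Ddx3y, a gene of the Y chromosome, was at 3.64 FPKM there and was listed at 0 in the 4 other libraries with a value. WT replicate 2 has no value for either gene. Values without WT replicate 1 are given for each member.

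Cd44 was the most abundant member and the only one past the test. It read 45.6, 45.4 and 46.6 FPKM in the WT libraries, against 30.6, 31.1 and 27.9 FPKM in the FNcKO libraries. The WT libraries lay close together and every FNcKO library lay well below them, WT replicate 1 included. The means were 45.9 ± 0.659 and 29.9 ± 1.7 FPKM (SD, n = 3 each), so the WT mean was 1.54 times the FNcKO mean. On the log2(FPKM + 1) scale Cd44 fell by 0.60 (SE 0.0646, 95% interval -0.76 to -0.45, limma adjusted p = 0.018, lower in 3 of 3 FNcKO libraries). It ranked 50th by p among 10149 genes tested. Without WT replicate 1 the log2 change was -0.61 (adjusted p = 0.0813), and without WT replicate 2 or 3 the adjusted p was 0.0733 or 0.0819. The call also depended on scaling: with every library set to the same FPKM total, the log2 change was -0.36 (adjusted p = 0.308), and -0.19 (adjusted p = 0.5) when that total left out the crystallins.

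**Figure D1:**
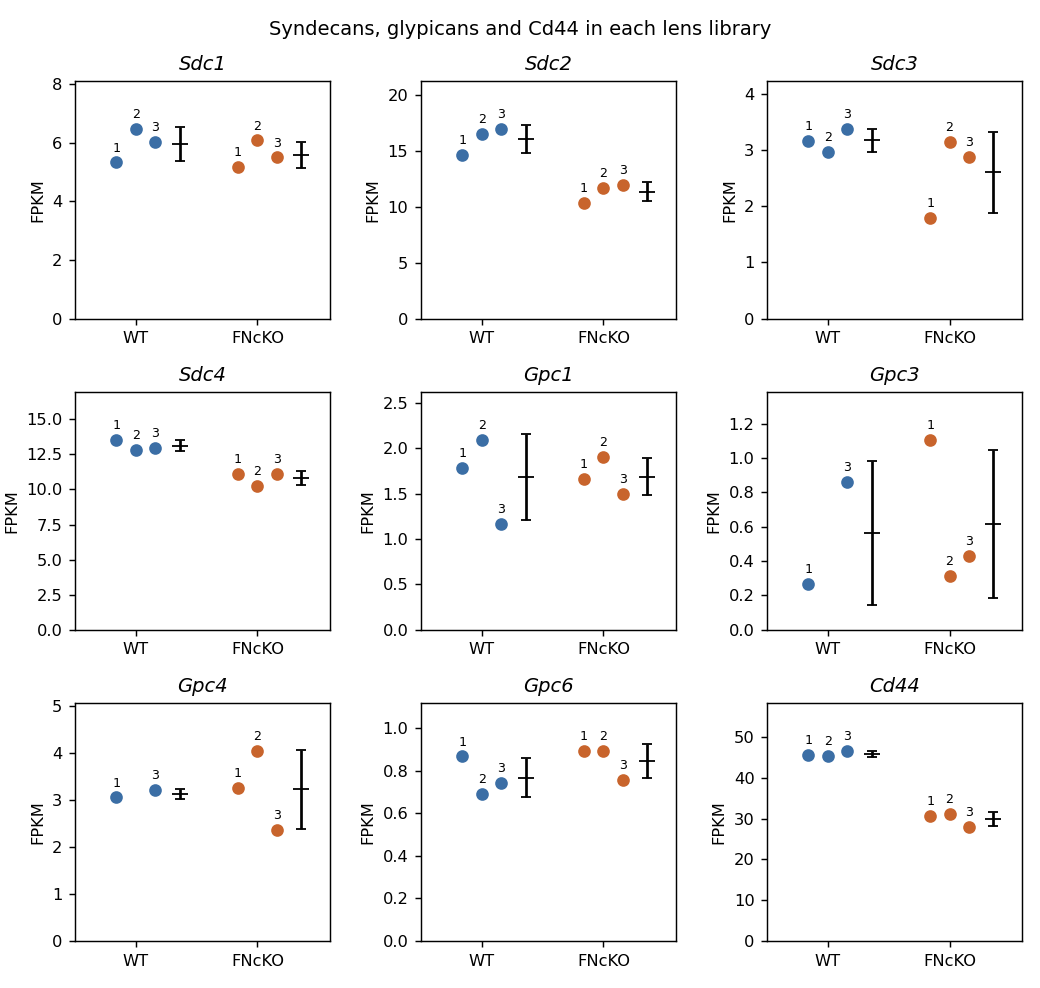
FPKM (vertical axes, each from 0) of the 9 members in WT (blue) and FNcKO (orange) libraries, numbered by replicate. Black bars are the mean and SD, over 2 WT libraries for Gpc3 and Gpc4. The groups stand apart for Cd44, with WT at 45.4 to 46.6 and FNcKO at 27.9 to 31.1 FPKM, and for Sdc2 and Sdc4, and they overlap for the other 6 genes.

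Of the 9 members, 7 reached the mean of 1 FPKM needed for the test. Cd44 was 1 of these 7, while 1.89% of all genes tested passed in either direction and 1.03% passed as lower. Besides Cd44, the groups of Sdc2 and Sdc4 did not overlap, both with FNcKO lower. Groups did not overlap for 25.6% of all genes tested, with FNcKO lower for 16.3%. None of the members was higher in FNcKO without overlap, against 9.31% of all genes tested. These counts describe the members and do not set them apart.

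Sdc2, the syndecan of fibroblasts and other mesenchymal cells, was the most abundant syndecan. It read 14.6, 16.5 and 17.0 FPKM in the WT libraries, against 10.4, 11.7 and 11.98 FPKM in the FNcKO libraries. All FNcKO libraries lay below all WT libraries. The means were 16.1 ± 1.24 and 11.4 ± 0.872 FPKM (SD, n = 3 each), a ratio of 1.41, but the log2 change of -0.46 (SE 0.0866, 95% interval -0.68 to -0.25) missed the threshold with a limma adjusted p of 0.0682. It also missed it in each alternative that was run, with adjusted p from 0.0573 to 0.803. The log2 change was -0.53 without WT replicate 1, -0.23 with the same FPKM total and -0.065 with that total without crystallins.

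Sdc4, the syndecan of focal adhesions, read 13.6, 12.8 and 13.0 FPKM in the WT libraries, against 11.1, 10.2 and 11.1 FPKM in the FNcKO libraries. Again the FNcKO libraries lay below the WT libraries, with a gap that was small beside that of Cd44. The means were 13.1 ± 0.384 and 10.8 ± 0.514 FPKM (SD, n = 3 each), a ratio of 1.21 (log2 change -0.26, SE 0.0612, limma adjusted p = 0.114). With the same total without crystallins the direction turned, to a log2 change of 0.14. Without WT replicate 1 the log2 change was -0.23.

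Sdc1, the syndecan of epithelia, read 5.33, 6.48 and 6.02 FPKM in the WT libraries, against 5.17, 6.07 and 5.5 FPKM in the FNcKO libraries. The groups overlapped, and 2 of 3 FNcKO libraries lay inside the WT range. The means were 5.94 ± 0.581 and 5.58 ± 0.457 FPKM (SD, n = 3 each), and the log2 change of -0.08 had a 95% interval from -0.30 to 0.14 (limma adjusted p = 0.706). Without WT replicate 1 it was -0.14 (limma adjusted p = 0.538).

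Sdc3, the syndecan of the nervous system, was the least abundant of the family. It read 3.16, 2.97 and 3.38 FPKM in the WT libraries, against 1.79, 3.15 and 2.88 FPKM in the FNcKO libraries. FNcKO replicate 1 lay far below the other libraries, and FNcKO replicate 2 lay within the WT range. The log2 change was -0.23 (SE 0.159, 95% interval -0.62 to 0.16, limma adjusted p = 0.511), and it was -0.06 without FNcKO replicate 1 and -0.23 without WT replicate 1.

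**Figure D2:**
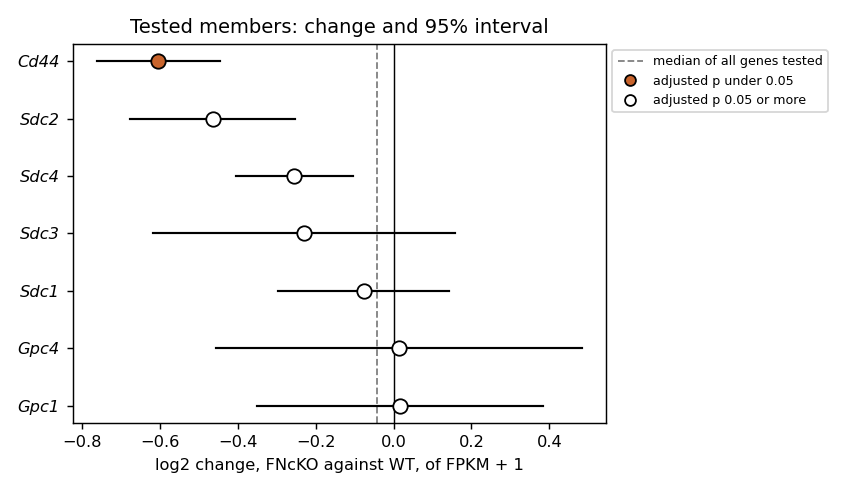
Log2 change in FNcKO against WT of FPKM + 1 (horizontal axis) for the 7 tested members, with 95% intervals from limma. Cd44 is the filled point, past adjusted p 0.05, and the dashed line is the median of all genes tested (-0.04). Sdc2 and Sdc4 have intervals below 0 but missed the threshold, and the points of Sdc1, Gpc1 and Gpc4 lie close to 0.

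The glypicans were the low members. Gpc4, a glypican of epithelia and neural tissue, was the most abundant, at 3.05 and 3.2 FPKM in WT replicates 1 and 3 and at 3.26, 4.04 and 2.36 FPKM in the FNcKO libraries. The FNcKO libraries lay on both sides of the WT libraries, with a log2 change of 0.01 (SE 0.182, 95% interval -0.46 to 0.48, limma adjusted p = 0.978) fitted on 5 libraries. Without WT replicate 1, when WT replicate 3 is the lone WT library with a value, it was -0.01. Gpc1, the glypican most widely expressed in adult tissue, read 1.79, 2.1 and 1.16 FPKM in the WT libraries, against 1.66, 1.9 and 1.5 FPKM in the FNcKO libraries. All FNcKO values lay inside the WT range, with a log2 change of 0.02 (SE 0.15, 95% interval -0.35 to 0.38, limma adjusted p = 0.969). Without WT replicate 1 it was 0.05.

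Gpc6 and Gpc3 lay below the filter. Gpc6 read 0.869, 0.692 and 0.744 FPKM in the WT libraries, against 0.895, 0.893 and 0.757 FPKM in the FNcKO libraries. These groups overlapped, and an exact two-sided permutation test of the means gave p = 0.2, where 0.1 is the smallest that 3 against 3 allows. Without WT replicate 1 the FNcKO mean was 0.13 FPKM above the WT mean, and the groups did not overlap. Groups stay apart more easily with fewer libraries, and the share of all genes without overlap was not computed there. Gpc3, a growth-restraining glypican mutated in an overgrowth syndrome, was at 0.268 and 0.86 FPKM in WT replicates 1 and 3. It was at 1.11, 0.313 and 0.429 FPKM in the FNcKO libraries (exact permutation p = 0.8, with 0.2 the smallest that 2 against 3 allows). The FNcKO mean lay 0.052 FPKM above the WT mean, and without WT replicate 1 the difference was -0.244 FPKM against the lone WT library. Gpc3 varied more between libraries of one genotype than between genotypes. The remaining glypicans of the family, Gpc2 and Gpc5, were no members and had means of 0.0665 and 0.152 FPKM in WT.

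Of the glypican genes, 4 lie in pairs: Gpc4 and Gpc3 are 108 kb apart on chromosome X, and Gpc5 and Gpc6 are 399 kb apart on chromosome 14. Within each pair the levels were unequal, with Gpc4 above Gpc3 in all 5 libraries with a value and Gpc6 above Gpc5 in all 6. The spans of the 4 member glypicans ranged from 28526 bases for Gpc1 (chromosome 1, 92831686 to 92860211, GRCm38) to 1054873 bases for Gpc6 (chromosome 14, 116924657 to 117979529).

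In WT, the order of levels was Cd44, Sdc2, Sdc4, Sdc1, Sdc3, Gpc4, Gpc1, Gpc6 and Gpc3. Cd44 lay above 92.1% of the genes tested, Sdc2 above 82.6% and Sdc4 above 79.8%, while Gpc1 lay above 19.5%. Neighbours whose WT libraries overlapped were Sdc3 with Gpc4, and Gpc6 with Gpc3. In FNcKO the order was the same except that Gpc4 stood above Sdc3, again with overlap. Sdc2 and Sdc4, apart in WT, overlapped in FNcKO, at 10.4 to 11.98 and 10.2 to 11.1 FPKM. Cd44 remained the highest member in FNcKO and lay above 89.5% of the genes tested.

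Shares and ratios within a library do not depend on how libraries are scaled to each other. The summed syndecan FPKM itself does depend on that scaling. It was 36.7, 38.8 and 39.4 in the WT libraries and 28.45, 31.2 and 31.5 in the FNcKO libraries. Sdc2 made up 39.9% to 43.1% of it in WT and 36.4% to 38.1% in FNcKO, without overlap. Sdc1 made up 14.5% to 16.7% in WT and 17.4% to 19.5% in FNcKO, also without overlap. The shares of Sdc4 (33.0% to 36.9% in WT, 32.8% to 39.1% in FNcKO) and Sdc3 (7.66% to 8.62% and 6.29% to 10.1%) overlapped. These shares were not tested.

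**Figure D3:**
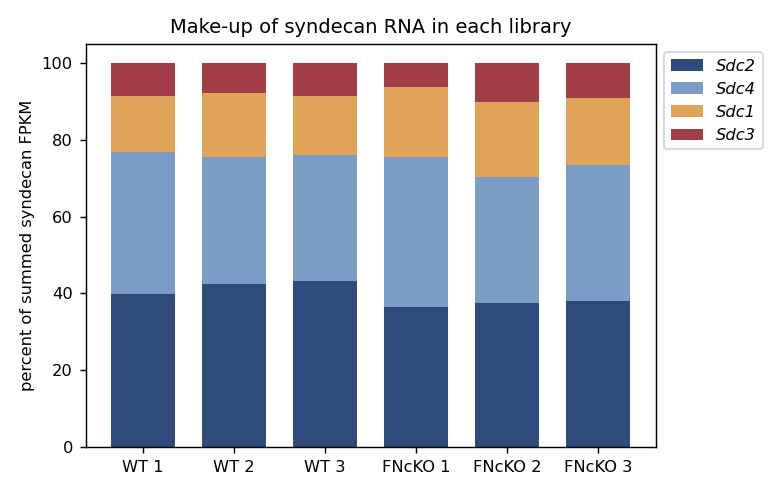
Each bar is 1 library, divided into the percent of summed syndecan FPKM that each syndecan made up (vertical axis, from 0). Sdc2 takes 39.9% to 43.1% in the WT bars and 36.4% to 38.1% in the FNcKO bars, and Sdc1 takes more in each FNcKO bar than in any WT bar.

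Ratios between members within a library were compared for 6 pairs. Cd44 was 8.56, 7.01 and 7.74 times Sdc1 in the WT libraries and 5.92, 5.12 and 5.08 times Sdc1 in the FNcKO libraries. The ratio was lower in 3 of 3 FNcKO libraries than in any WT library. The exact permutation p (two-sided) was 0.1, the smallest possible, and 0.2 after adjustment over the 6 ratios. Cd44 to Sdc4 (means 3.5 ± 0.119 and 2.77 ± 0.262, SD, n = 3 each) and Sdc2 to Sdc1 (2.71 ± 0.141 and 2.04 ± 0.13) gave the same exact p, without overlap. Cd44 to Sdc2 (2.87 ± 0.213 and 2.65 ± 0.313, exact p = 0.4), Sdc4 to Sdc1 (exact p = 0.4) and Sdc2 to Sdc4 (exact p = 0.2) overlapped. No ratio passed the adjustment, which 3 against 3 libraries cannot do here.

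**Figure D4:**
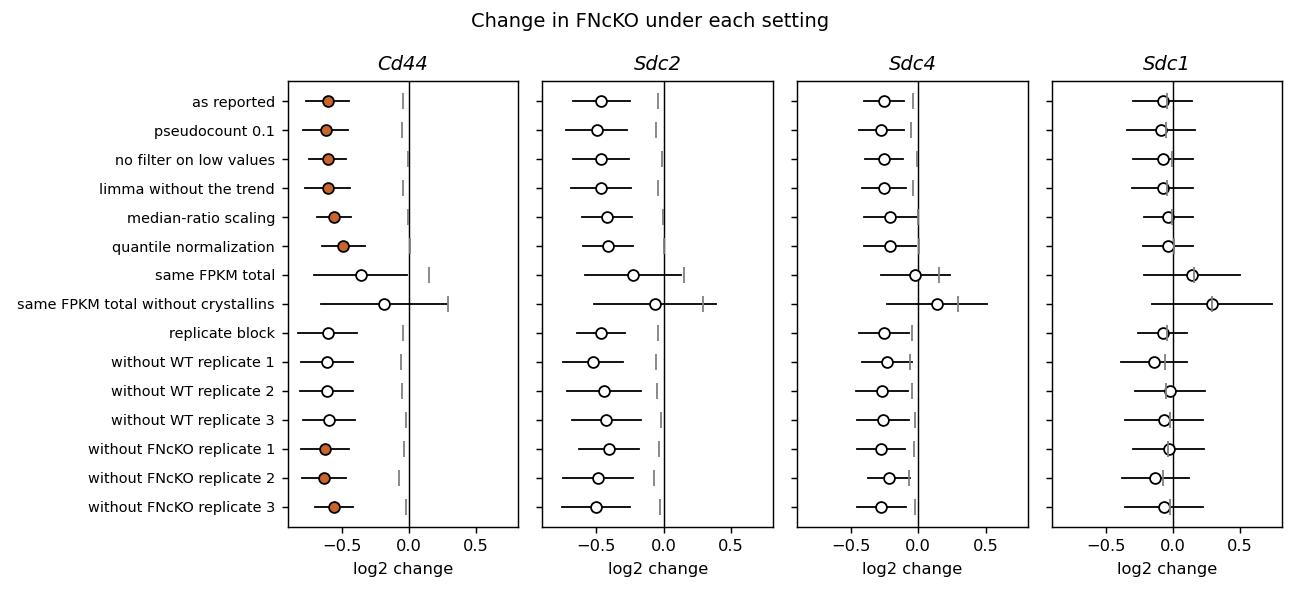
Log2 change in FNcKO against WT (horizontal axes) of Cd44, Sdc2, Sdc4 and Sdc1 under each setting, with 95% intervals. Filled points passed adjusted p 0.05 and grey ticks are the median of all genes under that setting. Cd44 stays below 0 in every row shown but loses the call in 6 of them, and the ticks move to 0.15 and 0.29 with the same-total scalings.

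The same-total scalings moved all genes, not Cd44 alone. They raised the median log2 change of all genes tested from -0.04 to 0.15, and to 0.29 when crystallins were left out of the total. Relative to that median, Cd44 stood at -0.56 as deposited and at -0.51 and -0.48 with the same-total scalings. Sdc2 stood at -0.42 as deposited and at -0.38 and -0.36 with them, Sdc4 at -0.21, -0.17 and -0.15, and Sdc1 at -0.03, -0.01 and 0.00. Each of these scalings divides a whole library by a common factor, which moves most genes nearly alike on the log2 scale. The values relative to the median were therefore bound to stay close, and they are no test of the changes. The intervals also widened under these scalings, for Cd44 to a range of -0.70 to -0.01 and of -0.66 to 0.28. Crystallins took 22.6% to 24.5% of FPKM in WT and 28.9% to 37.1% in FNcKO. Their own FPKM was 389554 to 417395 in WT and 430816 to 480952 in FNcKO. The library totals, leaving out genes with a missing value, were 1631866 to 1725738 FPKM in WT and 1251386 to 1519627 FPKM in FNcKO. The larger crystallin share in FNcKO thus went with lower totals as well as with higher crystallin FPKM.

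Other cell types that express Cd44 were looked for by their markers. None of 15 macrophage and leukocyte markers reached a mean of 1 FPKM over both genotypes. Lyz2, a macrophage lysozyme, had means of 1.33 FPKM in WT and 0.525 FPKM in FNcKO, with overlap. The 14 of these markers with a value in every library summed to 1.98 to 5.26 FPKM in WT and 1.11 to 4.07 FPKM in FNcKO, far below Cd44. Ptprc, the common leukocyte antigen, was between 0.0132 and 0.0953 FPKM, and Cd3e was listed at 0 throughout. Of 9 endothelial markers 1 reached 1 FPKM (sums of 1.23 to 1.41 and 1.42 to 2.13 FPKM), and Cdh5, Tie1, Emcn and Cldn5 were listed at 0. Of 10 fibroblast and mural cell markers 4 reached 1 FPKM, 3 with log2 changes below 0 and 1 above. Pdgfrb, a receptor of mural cells, fell from 5.01 ± 0.296 to 2.26 ± 0.141 FPKM (SD, n = 3 each; limma adjusted p = 0.00572), while Col1a2, a chain of type I collagen, was at 1.07 ± 0.207 and 2.13 ± 0.233 FPKM (SD, n = 3 each; limma adjusted p = 0.0636). The sum of the list (107 to 120 FPKM in WT, 77.0 to 89.8 FPKM in FNcKO) was mostly Acta2, smooth muscle actin, and without it was 13.8 to 14.8 and 11.6 to 12.8 FPKM. Of 10 pigment cell markers 2 reached 1 FPKM, neither past the test (sums of 12.5 to 20.7 and 7.3 to 9.03 FPKM). Of 10 ciliary body and iris markers 6 reached 1 FPKM, and 1 of these passed the test: Aqp1, a water channel, rose from 5.27 ± 0.991 to 15.6 ± 3.96 FPKM (SD, n = 3 each; limma adjusted p = 0.0432). Aqp4, another water channel, had all FNcKO values below WT (log2 change -0.196), and the list summed to 27.1 to 37.5 FPKM in WT and 59.9 to 78.2 FPKM in FNcKO. Photoreceptor markers (11 of 15 at 1 FPKM, 1 of them called lower) summed to 28.6 to 79.2 and 41.3 to 41.9 FPKM. Sums in this paragraph cover only markers with a value in every library, here 12 of 15. They leave out Gnat1, the 1 called lower. It was at 18.9 and 22.2 FPKM in WT replicates 1 and 3 and at 8.84 to 9.77 FPKM in FNcKO. Of the 11 tested, 10 had log2 changes below 0 (median -0.415), as did 6115 of all 10149 genes tested. Corneal markers (2 of 6, with Krt12 and Kera listed at 0) summed to 525 to 563 and 474 to 527 FPKM, nearly all of it Clu, and red cell markers (1 of 6) to 6.78 to 8.64 and 8.01 to 9.73 FPKM. The part of these tissues in the values of Cd44 and Sdc2 was not tested.

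Markers of the lens's own cell types were mixed. Of 11 tested epithelial markers limma called 2 higher and 0 lower (3 and 1 at an unadjusted p under 0.05), and 6 had log2 changes below 0. The 12 epithelial markers summed to 1550 to 1620 FPKM in WT and 1620 to 1830 FPKM in FNcKO, but to 722 to 780 and 671 to 768 FPKM without Cd24a, the most abundant. The 2 called higher were Slc7a5 (log2 change 0.52, limma adjusted p = 0.0159) and Epha2 (log2 change 0.47, limma adjusted p = 0.0422). Sparc, a matrix protein of the list, went the other way without a call, at 177 ± 4.69 and 154 ± 7.6 FPKM without overlap (SD, n = 3 each; limma adjusted p = 0.216). Of 13 tested fiber markers limma called 0, with 4 higher and 0 lower at an unadjusted p under 0.05. Over all genes tested, limma called 0.857% higher and 1.03% lower. At an unadjusted p under 0.05, 6.74% of all genes were higher and 11.4% lower. The fiber markers with a value in every library summed to 182000 to 191000 FPKM in WT and 192000 to 204000 FPKM in FNcKO. In whole lenses, fewer cells of a type and less RNA per cell cannot be told apart.

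Cd44 has 9 annotated transcripts in GENCODE M21, 8 of them coding, with up to 19 exons, since its variable exons are spliced in and out. The FPKM covers the gene as a whole (chromosome 2, 102811141 to 102901669, minus strand) and does not show which form was present. Sdc2 (chromosome 15, 32920723 to 33034721, plus strand) has 1 annotated transcript, and Sdc4 (chromosome 2, 164424247 to 164443188, minus strand) has 1 coding transcript. Cd44 and Sdc4 lie on the same chromosome, 61.5 Mb apart.

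The promoters of Cd44 and Sdc4 are shown because these genes have FNcKO values below WT values without overlap, and each is among the 6 members found in the RefSeq promoter table (GRCm38.p6). Each runs from 250 bases before to 50 bases after the start, on the coding strand, 5′ to 3′. Capitals mark matches on either strand to the GC box GGGCGG, the TATA box TATAA and the kappa B site GGGANTTCC. Cd44 is from chr2:102901616-102901915 and Sdc4 from chr2:164443139-164443438, both on the minus strand.
Cd44: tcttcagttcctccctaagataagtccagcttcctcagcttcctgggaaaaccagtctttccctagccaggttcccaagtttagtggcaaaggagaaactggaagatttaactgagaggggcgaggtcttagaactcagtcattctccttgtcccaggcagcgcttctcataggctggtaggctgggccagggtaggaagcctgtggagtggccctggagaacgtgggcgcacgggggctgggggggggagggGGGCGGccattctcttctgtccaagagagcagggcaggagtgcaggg
Sdc4: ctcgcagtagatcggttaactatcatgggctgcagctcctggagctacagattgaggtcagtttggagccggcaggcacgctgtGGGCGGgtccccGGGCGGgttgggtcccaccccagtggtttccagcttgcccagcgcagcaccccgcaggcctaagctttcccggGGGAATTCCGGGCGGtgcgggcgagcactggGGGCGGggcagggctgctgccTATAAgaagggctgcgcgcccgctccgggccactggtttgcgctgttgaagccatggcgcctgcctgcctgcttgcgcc
The Sdc4 stretch held 4 GC boxes, 1 TATA box that began 29 bases before the start, and 1 kappa B match that ended next to a GC box without overlapping it. The Cd44 stretch held 1 GC box, which lay after the start. Of 27025 promoters of the same length, 35.9% held a GC box, 25.5% a TATA box and 1.69% a kappa B match. The AP-1 site TGANTCA, held by 7.93% of all promoters, had no match in the 6 members. The E box CANNTG, held by 72.1%, matched in Sdc1 alone of the 6. Sdc4 held 22 CpG dinucleotides, Cd44 held 6 and Sdc3 held 44, against a median of 7. The motifs were chosen with the sequences in view, and a match is a description of letters and not of binding.

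The genes that act with the members were read from the same fit, in 4 lists. None of the members of these lists passed limma's test over all genes, where 1.89% of genes tested did. Among 15 tested enzymes and transporters of heparan sulfate synthesis, 1 was lower at an unadjusted p under 0.05, where 11.4% of all genes were. This was Sulf1, a secreted enzyme that trims sulfate groups from heparan sulfate, at 6.57, 7.0 and 6.83 FPKM in the WT libraries. It was at 4.7, 4.31 and 5.29 FPKM in the FNcKO libraries, without overlap (log2 change -0.44, SE 0.0793, adjusted p = 0.0634). Glce, which turns glucuronic into iduronic acid in the chain, was at 1.6 ± 0.124 (SD, n = 2) and 2.27 ± 0.454 FPKM (SD, n = 3; adjusted p = 0.333). The median log2 change of the list was -0.03, beside -0.04 for all genes tested. The list's summed FPKM was 51.5 to 54.8 in WT and 50.8 to 52.3 in FNcKO.

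Of 12 other proteoglycans listed, 5 reached the filter and were tested. Of these 5, 4 had log2 changes above 0 (median 0.36), as did 4034 of all 10149 genes tested. At an unadjusted p under 0.05, 3 were higher, where 6.74% of all genes were. Col18a1, a collagen with heparan sulfate chains in basement membranes, read 6.19, 4.97 and 7.59 FPKM in the WT libraries, against 16.8, 10.3 and 13.5 FPKM in the FNcKO libraries. The groups did not overlap, and the log2 change of 0.99 (SE 0.206) had an adjusted p of 0.0805. It passed with the same FPKM total, at 1.22 (adjusted p = 0.0425), and with that total without crystallins, at 1.37 (adjusted p = 0.0295). Spock1, a secreted proteoglycan also called testican-1, was at 3.35 ± 0.355 and 4.98 ± 0.498 FPKM (SD, n = 3 each; limma's adjusted p = 0.081), and passed with median-ratio scaling (adjusted p = 0.0485).

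Among 14 tested partners and sheddases, 3 were higher at an unadjusted p under 0.05 and 0 were lower, with a median log2 change of -0.03. Over all genes tested, 6.74% were higher and 11.4% lower at that threshold. Adam10, a protease that sheds Cd44 and syndecans, was at 10.1 ± 0.393 (SD, n = 2) and 13.4 ± 1.02 FPKM (SD, n = 3; adjusted p = 0.131). Prkcd, protein kinase C delta, was at 2.51 ± 0.164 and 4.25 ± 1.09 FPKM (SD, n = 3 each; limma's adjusted p = 0.144). Both groups of values were without overlap. Sdcbp, syntenin, was at 3.39 ± 0.176 and 3.17 ± 0.263 FPKM (SD, n = 3 each) with overlap; it was chosen after its values were seen, because it binds the tail shown above.

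Among 11 tested genes of hyaluronan and of the link from Cd44 to actin, 2 were higher and 2 lower at an unadjusted p under 0.05. The shares over all genes tested were 6.74% higher and 11.4% lower. The median log2 change of the list was 0.14. Epb41, protein 4.1R, which joins membrane proteins such as Cd44 to spectrin and actin, was at 41.9, 43.1 and 42.0 FPKM in the WT libraries. It was at 31.1, 33.8 and 34.4 FPKM in the FNcKO libraries, without overlap (log2 change -0.35, SE 0.0632, adjusted p = 0.0636). Nf2, merlin, a relative of ezrin that binds the Cd44 tail, was at 13.4 ± 0.137 and 16.5 ± 1.52 FPKM (SD, n = 3 each; limma's adjusted p = 0.156). The hyaluronan synthases Has1, Has2 and Has3 stayed below the filter, with no library above 0.353 FPKM.

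**Figure D5:**
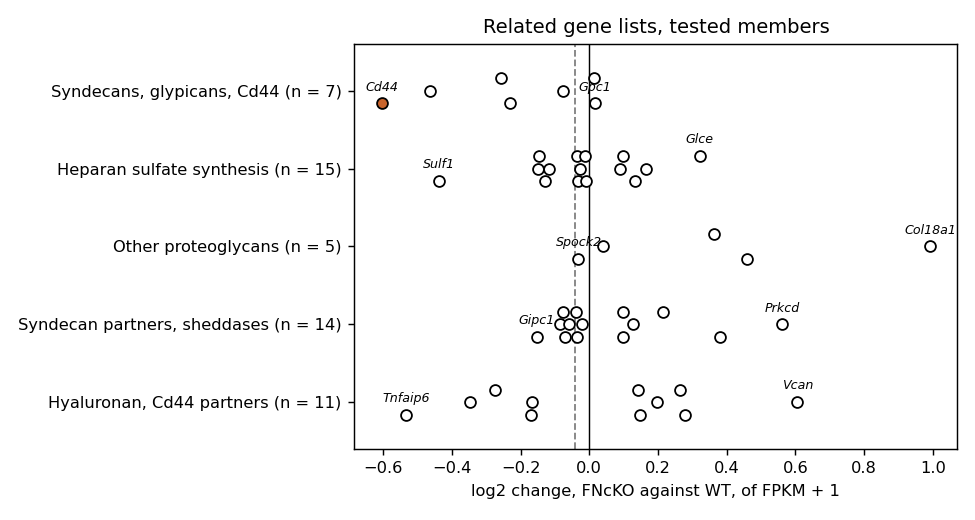
Log2 change in FNcKO against WT of FPKM + 1 (horizontal axis) of the tested genes of each list, 1 point a gene, spread vertically for sight; the dashed line is the median of all genes tested (-0.04). Cd44 is the 1 filled point, past adjusted p 0.05, and the lowest and highest gene of each list are named. The heparan sulfate synthesis and other proteoglycan lists, which leave out the members, run from -0.44 (Sulf1) to 0.99 (Col18a1).

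Genes whose level followed that of Cd44 most closely over the 6 libraries included Zfhx4, a zinc finger homeobox gene, and Map2, a microtubule-associated protein. Pearson correlations of log2(FPKM + 1) with Cd44 were 0.995 for each (n = 6 libraries). The libraries fall into 2 genotypes, so any gene that differs between them also correlates with Cd44. Map2 was at 5.65 and 1.31 FPKM and Zfhx4 at 4.85 and 4.14 FPKM in WT and FNcKO (means). Cd44 was both the most abundant member and the one with the smallest p.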

How the data were processed

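RNA was measured in 6 lens libraries. The labels' protocols give microdissection and a strand-keeping total RNA kit for low input. The authors deposited FPKM values, 1 column a library; FastQC, cutadapt 1.12, TopHat2 2.1.0, Cuffdiff 2.2.1, mm10 and GRCm38.p5 are named per the submitters' processing notes. Annotation, use of strand, handling of multiply mapped fragments and any scaling between libraries: none of these is given in the sources used here. Groups come from the sample titles.

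WT replicate 2 has no value in 3578 of 41449 rows (8.63%), and 1 unreadable value was set to missing. Such genes were fitted on the other libraries. Starts were raised by 1, after which 26907 of 36978 matched rows began where the RefSeq table does.

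From the deposited FPKM, log2(FPKM + 1) was compared between genotypes, in R 4.3.3 with the package limma 3.58.1 (two-sided, empirical Bayes with trend). The 10149 genes whose mean reached 1 FPKM were tested. P-values were adjusted by Benjamini-Hochberg over all of them, with a threshold of 0.05. Log2 changes on this scale understate the change of low genes. The procedure was tested on simulated data. Alternatives were the pseudocount, the filter, the trend, 4 scalings, the replicate number as a block and leaving out each library. Single values were compared by exact permutation tests over libraries.

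The rule for named genes took all members, Fn1, for each related list the calls or the 2 genes with the smallest p, and the 3 genes most correlated with the member of smallest p and with the most abundant one. Predicted genes, pseudogenes and small RNAs were left out of the last, and 1 gene it named is not reported here. The members and lists were chosen with earlier results of these data known. Xist, Ddx3y, Ptprc, Gpc2, Gpc5, the Has genes, Sdcbp and single cell type markers were named outside the rule.

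Fragment numbers are not in the table. Low values of single-exon genes came closest to whole numbers of fragments at depths of 11750000 to 14500000 in WT and 9350000 to 9900000 in FNcKO, where 61.2% to 70.3% lay within 0.15 of a whole number. In some libraries other depths matched nearly as well, up to 64.7% at 18650000 in FNcKO replicate 3. The depth is therefore unknown, and no fragment numbers or counting intervals are given.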

Additional observations from a re-analysis of the deposited data

How the results depend on the processing

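Cd44 kept its direction in all 14 alternatives (log2 change from -0.63 to -0.19) and its call in 8. The number of members called was 0 with the same FPKM total, with that total without crystallins and with the replicate block (Cd44 adjusted p = 0.308, 0.5 and 0.141). It ranged from 0 to 1 with 1 library left out: 0 without any of the WT libraries and 1 without any of the FNcKO libraries (adjusted p from 0.0377 to 0.0819). Fewer libraries were fitted there. Other causes were not tested. Sdc2 kept its direction, and missed the threshold, in all 14.

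The 192 genes called became 101 without the filter, 89 and 86 with the same total and that without crystallins, 14 with the replicate block and 37 to 117 with 1 library left out. The share of calls that were higher was 45.3% as deposited, 57.9% with median-ratio scaling, 60.4% with quantile normalization, and 70.8% and 76.7% with both same-total scalings.

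Among genes that were not called, signs turned with the same total without crystallins for Sdc1 (0.29), Sdc3 (0.093) and Sdc4 (0.14), and with the same total for Sdc1 (0.14). Gpc1 turned without WT replicate 3 or FNcKO replicate 2 (-0.131 and -0.04; range to 0.127 over the libraries left out). Gpc4 turned with the block (-0.12) and without WT replicate 1, FNcKO replicate 1 or FNcKO replicate 2 (-0.01, 0.00 and -0.125; range to 0.167); without WT replicate 1 or 3 its lone WT library is assumed to vary like the other group.

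Of the 2 members under the filter, 0 had groups without overlap as deposited, 1 with both same-total scalings, and 0 to 1 with 1 library left out. As deposited, 25.6% of all genes tested had groups without overlap. That share was not computed under the other settings, and groups stay apart more easily with fewer libraries. These counts are therefore no result about the 2 members. The related lists had 0 calls as deposited and 1 with median-ratio scaling and with both same-total scalings. The causes were not tested.

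The replicate numbers showed no sign of pairing the libraries: deviations of same-numbered libraries from their group means correlated at -0.03, -0.05 and -0.05 over 9407 genes. With 3 libraries a group these correlations depend on each other, so they cannot settle whether the libraries were paired. In these deviations, no library correlated best with the library of its own number. The 3 libraries a group and an unknown depth limit what can be seen of Gpc3 and Gpc6. P-values set a difference between the groups against the spread between these samples, and they cannot separate genotype from strain background.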
